A study of Mus musculus with 3 samples.

Results

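The tight junction genes described here are Tjp1, Ocln, Cldn1, Cldn3, Cldn4, Cldn7, Cldn15, F11r and Cgn. They were taken by gene symbol from the table of all genes, and all 9 were found among its 18245 genes. The list was drawn up with earlier results of these data known. They were followed in 3 kinds of cultured mouse cell, with 3 RNA sequencing libraries of each kind (n = 3 throughout). Of the 9, 4 were tested in every comparison, Cldn3 was tested in those with pEpiC alone, and the other 4 were at too few reads for the test in any comparison.

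All cells came from hearts of C57BL/6 mice with no transgene or deletion named. CDC are cardiosphere-derived cells from mice aged 6 weeks. They grow out of explants of the ventricle epicardium, the outer layer of the heart, form floating spheres and are replated as a mesenchymal monolayer. CDC-EpiC grew from an epithelial colony isolated with a cloning cylinder after CDC had spent 2 weeks with SB-431542 at 10 µM, a compound that blocks receptor kinases of the TGF-beta pathway. Since it is 1 clone, its 3 libraries say nothing of how clones vary, and selection of the clone and exposure to the compound cannot be told apart. pEpiC are primary epicardial cells from mice aged 6 to 8 weeks, which the authors released from the dissected heart by repeated enzyme digestion. CDC and pEpiC were used at passage 3. GEO lists 1 sample per kind, to which all 3 library columns belong, and the extraction protocol speaks of 3 separate RNA samples but not of separate mice or cultures, so p-values measure only the spread between these libraries, which may be technical.

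A tight junction seals the gap between neighbouring epithelial cells near their apical edge. Claudins and occludin are membrane proteins that form its strands, and the junctional adhesion molecules are immunoglobulin-type receptors beside the strands. Scaffolds of the zonula occludens family and cingulin join these membrane proteins to actin and myosin below. The epicardium is a mesothelium, an epithelium of mesodermal origin, and its cells can lose such contacts when they turn mesenchymal.

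Each library held 22008833 to 22756045 expected counts, which are estimated reads per gene. Levels below are CPM, counts scaled to the library total after TMM normalization, and levels of different genes are compared only in TPM, which allows for transcript length. Mesothelial markers summed to 525 to 546 CPM in CDC, 4728 to 5518 CPM in CDC-EpiC and 497 to 526 CPM in pEpiC, with 10 of 10 markers above the floor of 3 counts in each kind. Upk3b and Lrrn4 carried the clone's sum, while Tbx18 had 1970 to 2072 counts in CDC and 1171 to 1407 in the clone, and Krt19 had 635 to 900 and 468 to 646. Of 6 general epithelial markers, Epcam, Grhl2 and Esrp1 lay at or under that floor in all 9 libraries, and Cdh1 (E-cadherin) did so in pEpiC alone. The 6 summed to 6.23 to 7.02 CPM in CDC, 5.58 to 7.75 CPM in CDC-EpiC and 0.392 to 0.613 CPM in pEpiC. CDC libraries 1 and 2 stood apart from CDC library 3: red blood cell genes summed to 52.1, 83.0 and 0.181 CPM, lung epithelial genes to 5.03, 8.21 and 1.09 CPM and heart muscle genes to 26.3, 26.9 and 9.60 CPM. Macrophage genes summed to 939, 351 and 324 CPM in the pEpiC libraries. They summed to 57.6 to 61.1 CPM in CDC and 22.6 to 25.2 CPM in CDC-EpiC. Ptprc and Adgre1 were at or under the floor in both CDC and CDC-EpiC. Most of the CDC sum was Lyz2, at 786 to 867 counts, and Csf1r, at 409 to 448 counts. Fibroblast genes summed to 6297 to 8226 CPM in CDC, 3631 to 4362 CPM in CDC-EpiC and 21527 to 23399 CPM in pEpiC. Heart muscle genes summed to 11.7 to 13.6 CPM in CDC-EpiC and 138 to 155 CPM in pEpiC. Nearly all of the pEpiC sum was Tnnt2, at 3099 to 3477 counts. Myh6 and Myh7 were at or under the floor in both CDC-EpiC and pEpiC. Liver genes summed to 300.1 to 340.7 CPM in CDC, 2235 to 2460 CPM in CDC-EpiC, nearly all of it Trf, and 105 to 115 CPM in pEpiC. In CDC libraries 1, 2 and 3, Alb had 660, 599 and 1 counts and Fga 128, 171 and 0, while Trf had 5529, 5664 and 6087. The part of these other cells in the results was not tested, except where a value without the CDC libraries concerned is given. In bulk RNA, fewer cells of a type and less RNA per cell cannot be told apart.

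The members carried by most of the data were F11r, Cgn, Cldn15 and Tjp1. Their promoters are shown because the first 3 stood higher by count in the clone than in both other kinds. For Cldn15 the difference from pEpiC did not pass the test once transcript length and GC content were allowed for. Each stretch runs 5′ to 3′ on the gene's own strand from 250 to 51 bases before the start in the RefSeq annotation (build GRCm38.p6), and capitals mark the E-box CAGGTG or its reverse complement CACCTG. The Snail and Zeb factors, repressors of epithelial genes, are known to bind this motif.
F11r, chr1:171437311-171437510, plus strand: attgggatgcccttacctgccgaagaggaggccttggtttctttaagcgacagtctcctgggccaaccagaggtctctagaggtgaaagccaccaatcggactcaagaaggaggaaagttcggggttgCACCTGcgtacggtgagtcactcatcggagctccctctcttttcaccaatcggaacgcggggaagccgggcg
Cgn, chr3:94786533-94786732, minus strand: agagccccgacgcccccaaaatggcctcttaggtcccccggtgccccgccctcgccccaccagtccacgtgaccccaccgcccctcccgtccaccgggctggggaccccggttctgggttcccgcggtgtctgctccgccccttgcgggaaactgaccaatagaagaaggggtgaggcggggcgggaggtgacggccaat
Cldn15, chr5:136967619-136967818, plus strand: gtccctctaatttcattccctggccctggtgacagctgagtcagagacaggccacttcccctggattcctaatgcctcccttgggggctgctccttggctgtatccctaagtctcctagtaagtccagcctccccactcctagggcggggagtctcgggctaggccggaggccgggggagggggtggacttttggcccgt
Tjp1, chr7:65371295-65371494, minus strand: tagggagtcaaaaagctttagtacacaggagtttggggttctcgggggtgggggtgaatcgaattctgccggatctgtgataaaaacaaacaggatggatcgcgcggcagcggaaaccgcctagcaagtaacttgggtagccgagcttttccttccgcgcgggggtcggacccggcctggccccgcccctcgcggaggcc
All 9 members matched the RefSeq table, with 11 windows between them because Ocln and Cldn7 have a second start. The E-box stood in 4 of the 11 windows, those of F11r (122 bases before the start), Cldn4, the second start of Ocln and the second start of Cldn7, and in 17.2% of all 32851 windows of 250 bases. The consensus AACCGGTT of the Grainyhead-like factors, known activators of epithelial junction genes, was in none of the 11 and in 0.116% of all windows. The printed stretches of Cldn15 and Tjp1 lie within the span that GENCODE gives the gene, downstream of its outermost start. These matches are descriptions of the letters in the window and not sites of binding.

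In the comparison of CDC-EpiC with CDC, which asks how the epithelial clone differs from the mesenchymal culture it came from, the members that could be tested were higher in the clone. The adhesion receptor gene F11r, the plaque gene Cgn and the claudin gene Cldn15 rose 5.78-fold to 12.3-fold, while the scaffold gene Tjp1 rose 1.33-fold. All 4 tested members were called, all 4 higher, and none overlapped between the kinds. Of all 12976 genes tested, 68.8% were called, 34.2% higher and 34.6% lower, and 72.1% did not overlap, so that a call by itself sets the members little apart. The median change of the tested members was 2.89 on the log2 scale, against 0.00267 for all genes.

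F11r (Entrez 16456, chromosome 1, 171437535 to 171464603, plus strand) encodes junctional adhesion molecule A, which binds its like on the next cell and recruits polarity proteins. Its expected counts were 682.46, 689.47 and 788.10 in CDC, 7224.22, 6779.50 and 7025.81 in CDC-EpiC, and 643.97, 710.42 and 709.74 in pEpiC. Each clone library held many times the reads of any library of the other kinds. The mean level was 32.8 ± 2.50 CPM (SD, n = 3) in CDC, 313 ± 5.99 CPM in CDC-EpiC and 30.0 ± 1.78 CPM in pEpiC. The clone was 9.50-fold above CDC, a log2 change of 3.25 (SE 0.08, edgeR adjusted p = 1.05e-13), and a rise of at least 8-fold was called for 1.76% of all genes. Its counts were not whole in any of the 9 libraries, the form that estimated counts take where reads fit more than 1 gene.

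Cgn (Entrez 70737, chromosome 3, 94760069 to 94786492, minus strand) encodes cingulin, the cytoplasmic plaque protein that ties the junction to actomyosin. Its counts were 126, 145 and 179 in CDC, 881, 923 and 861 in CDC-EpiC, and 82, 77 and 75 in pEpiC. The 3 kinds did not overlap, with the clone highest and pEpiC lowest. The mean was 6.83 ± 1.17 CPM in CDC, 39.7 ± 1.97 CPM in CDC-EpiC and 3.40 ± 0.141 CPM in pEpiC (SD, n = 3). From CDC to the clone the log2 change was 2.53 (SE 0.11, edgeR adjusted p = 2.11e-11).

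Cldn15 (Entrez 60363, chromosome 5, 136966616 to 136975858, plus strand) encodes claudin-15, known as a cation-selective pore former in the intestine. Its counts were 35, 34 and 30 in CDC, 339, 491 and 426 in CDC-EpiC, and 307, 275 and 246 in pEpiC. CDC was lowest in every library, and both other kinds stood far above it. The mean was 1.505 ± 0.132 CPM in CDC, 18.7 ± 3.65 CPM in CDC-EpiC and 12.02 ± 1.27 CPM in pEpiC (SD, n = 3). The clone was 12.3-fold above CDC, a log2 change of 3.63 (SE 0.17, edgeR adjusted p = 6.45e-11). It was the member with the greatest rise in this comparison.

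Tjp1 (Entrez 21872, chromosome 7, 65296165 to 65527781, minus strand) encodes ZO-1, the scaffold that binds claudins, occludin and F11r protein through separate domains and links them to actin. Its counts were 1526, 1334 and 1852 in CDC, 2127, 2056 and 2229 in CDC-EpiC, and 2769, 2853 and 2799 in pEpiC. The 3 kinds again did not overlap, but their order was another one, with CDC lowest and pEpiC highest. The mean was 71.6 ± 11.7 CPM in CDC, 95.4 ± 2.95 CPM in CDC-EpiC and 122 ± 2.13 CPM in pEpiC (SD, n = 3). From CDC to the clone the log2 change was 0.41 (SE 0.10, edgeR adjusted p = 0.00188). With CDC library 3 as the only CDC library, and the spread taken from the clone's libraries, it was 0.18 (SE 0.09, adjusted p = 0.115). Without CDC library 1 or 2 singly it was 0.39 (adjusted p = 0.00979) or 0.30 (adjusted p = 0.0093), and the lowest clone library, at 93.3 CPM, lay above CDC library 3, at 83.8 CPM.

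**Figure D1:**
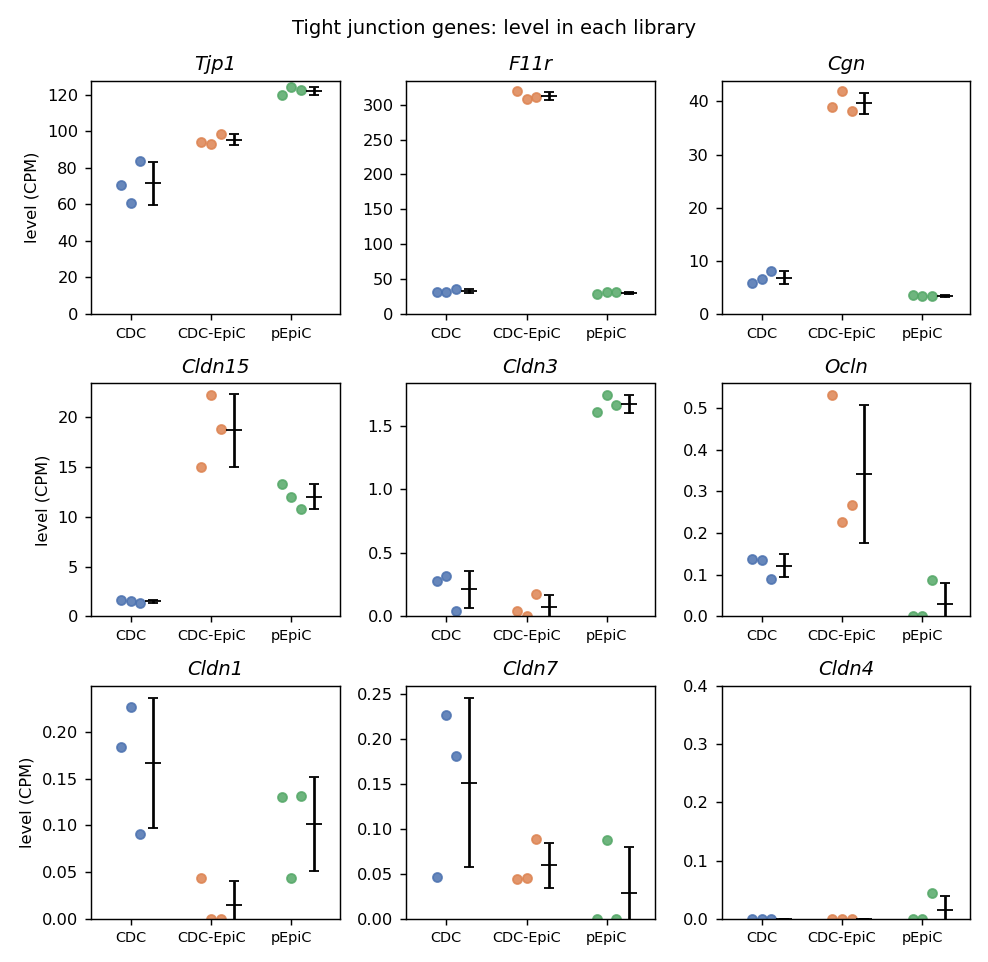
Level of each member in CPM (vertical axis, from 0, with its own scale in each panel) in the 3 libraries of CDC, CDC-EpiC and pEpiC. Points are libraries and the black bar is the mean ± SD (n = 3), cut at 0. F11r and Cgn stand apart in CDC-EpiC, Cldn15 is low in CDC alone, Tjp1 climbs from 71.6 CPM in CDC to 122 CPM in pEpiC, and the last 4 panels span a few reads only.

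The comparison of pEpiC with CDC asks how primary epicardial cells differ from the cells grown out of epicardial explants. The members did not move together. Cldn15, Cldn3 and Tjp1 were higher in pEpiC, Cgn was lower, and F11r did not pass the test. Of 5 tested members 4 were called, and none of the 5 overlapped, where 78.3% of all 13526 genes tested were called (39.8% higher and 38.5% lower) and 81.5% did not overlap. The median change of the tested members was 0.73, against 0.0196 for all genes, but Cldn3 entered only through its level in pEpiC and so had to differ.

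Cldn15 was 7.72-fold above CDC in pEpiC, a log2 change of 2.95 (SE 0.14, edgeR adjusted p = 4.40e-08). No member rose 8-fold or more in the fit, as 5.16% of all genes did. Cgn fell by 1.05 on the log2 scale (SE 0.15, edgeR adjusted p = 0.000104), to 0.483 of its CDC level. Tjp1 rose by 0.73 (SE 0.10, edgeR adjusted p = 5.76e-05), or 1.66-fold, and by 0.49 (adjusted p = 0.000287) against CDC library 3 alone. The scaffold gene and the plaque gene therefore moved in opposite directions. The difference in F11r was -0.17 (SE 0.07, adjusted p = 0.0511), less than the threshold allows although the libraries did not overlap. On log2(TPM + 1) limma gave 0.32 (SE 0.09, adjusted p = 0.0115), on a scale where the median of all genes was 0.41, so that F11r lay below the median there too. F11r was lowest in pEpiC library 1, at 27.9 CPM against 30.9 and 31.1 CPM, the library with the most macrophage RNA. Without that library the difference from CDC was -0.13 (edgeR adjusted p = 0.183). A link between F11r and the macrophage RNA was not tested.

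Cldn3 (Entrez 12739, chromosome 5, 134986214 to 134987472, plus strand) encodes claudin-3, a sealing claudin of many epithelia. It had 6, 7 and 1 counts in CDC, 1, 0 and 4 in CDC-EpiC, and 37, 40 and 38 in pEpiC. The reads were few everywhere, and in pEpiC its 3 libraries were close to each other, at 1.67 ± 0.0694 CPM (SD, n = 3). The ratio of pEpiC to CDC was 8.23 over the summed counts, with an exact 95% interval of 4.71 to 15.5 that covers counting error only, and the log2 change was 2.89 (SE 0.41, edgeR adjusted p = 9.05e-05). The CDC reads lay mostly in libraries 1 and 2, and against library 3 alone the log2 change was 4.998 (SE 0.58, adjusted p = 0.000381). The annotation places Wbscr25 over Cldn3 on the other strand, and without knowledge of whether strand was used the reads of the pair cannot be told apart.

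The comparison of CDC-EpiC with pEpiC asks in what the clone still differed from primary epicardium in culture. All 5 tested members differed, 3 higher and 2 lower in the clone, and none overlapped, where 81.9% of all 13547 genes tested were called (40.3% higher and 41.5% lower) and 84% did not overlap. The median change of these 5 was 0.63, against -0.0182 for all genes, and Cldn3, which passed the filter only through pEpiC, had to differ here as well. Cgn was 11.6-fold higher in the clone, a log2 change of 3.54 (SE 0.08, edgeR adjusted p = 2.10e-10). F11r was 10.4-fold higher, a log2 change of 3.38 (SE 0.06, edgeR adjusted p = 5.00e-11), and rises of at least 8-fold were called for 2.24% of all genes. The level of both genes in the clone was thus far above that of the primary cells.

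The remaining 3 changes were smaller or rested on few reads. Cldn15 was 1.55-fold higher in the clone, a log2 change of 0.63 (SE 0.14, edgeR adjusted p = 0.00183). Allowing for transcript length and GC content brought this to 0.22 (adjusted p = 0.143), and it passed no threshold on log2(TPM + 1) either (0.23, adjusted p = 0.128, beside a median of -0.33 for all genes). Cldn3 was lower in the clone, with a log2 change of -4.39 (SE 0.50, edgeR adjusted p = 1.79e-05), and pEpiC held 22.7 times the clone's summed reads (95% interval 9.44 to 71.2). Without CDC-EpiC library 3 the change was -5.90, and without library 2 it was -3.85. Tjp1 was lower in the clone by the count test, with a log2 change of -0.36 (SE 0.05, edgeR adjusted p = 3.51e-05).

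**Figure D2:**
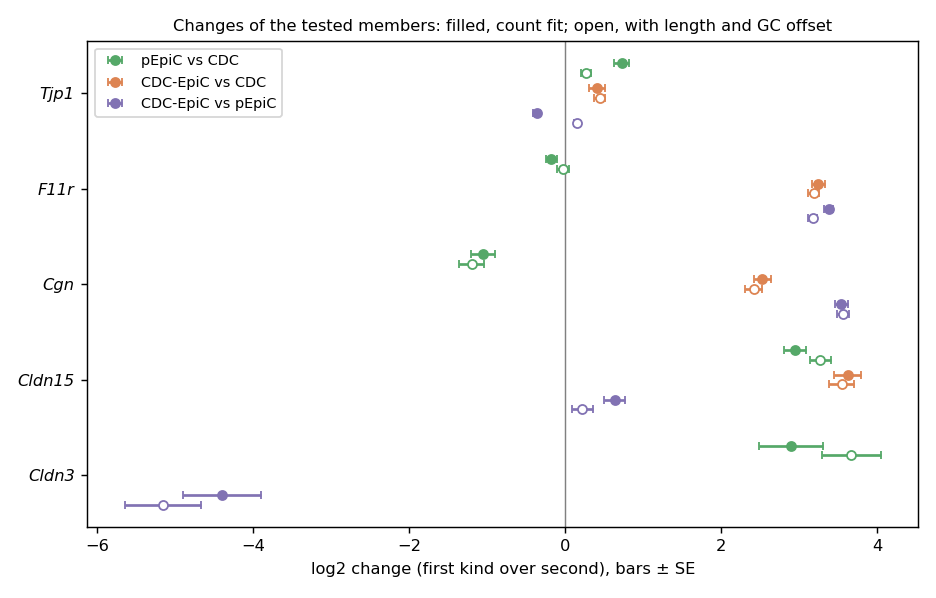
Log2 change (horizontal axis, first kind over second, bars ± SE) of the 5 tested members in the 3 comparisons, by the count test (filled) and with an offset for transcript length and GC content (open). Cldn3 has no value between CDC-EpiC and CDC. F11r and Cgn keep changes above 2 in both comparisons of the clone, while Tjp1 moves from -0.36 to 0.16 between CDC-EpiC and pEpiC.

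The length check bears most on Tjp1. Its longest transcript has 7049 bases, longer than 91.9% of genes, against 5016 for Cgn, 2518 for F11r, 1902 for Cldn15 and 1259 for Cldn3. Across 10620 genes the change between pEpiC and CDC rose by 0.423 on the log2 scale for each doubling of transcript length, and between CDC-EpiC and pEpiC it fell by 0.419 over 10624 genes. Between CDC-EpiC and CDC the slope was 0.00409. Long genes were therefore higher in pEpiC than in either other kind as a rule. The cause of this trend was not tested.

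Set beside the 500 tested genes nearest to it in length, Tjp1 kept part of its difference between pEpiC and CDC. The median change of these neighbours was 0.37, which leaves 0.36 for Tjp1, and 70.4% of the neighbours lay below it. It was thus above most genes of its length, but not outside their range. With a length offset in the edgeR fit the change was 0.28 (adjusted p = 0.00719), and with length and GC content it was 0.27 (adjusted p = 0.00528). Between CDC-EpiC and pEpiC the neighbours' median was -0.37, which leaves 0.0068, and 50.4% of them lay below Tjp1. Tjp1 stood there at the median of its neighbours. The offsets turned its direction, to 0.14 (adjusted p = 0.0149) with length and to 0.16 (adjusted p = 0.00394) with length and GC content, while log2(TPM + 1) gave -0.75, where the median of all genes was -0.33. The order of Tjp1 between the clone and pEpiC is therefore not settled by these libraries. From CDC to the clone its change was 0.42 with length and 0.44 with both, beside the 0.18 against CDC library 3 alone, and it did not pass the test against a 1.5-fold change (adjusted p = 1).

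Of the other members, F11r between pEpiC and CDC was the one whose sign turned against genes of like length, by 0.092 above a neighbours' median of -0.27. Cgn, the second longest, lay at -1.05 between pEpiC and CDC where its neighbours had a median of 0.21, and only 7.8% of them lay lower. Cldn15 and Cldn3 lay above 97.8% and 98.2% of their neighbours in that comparison. F11r lay above 54.8% of its neighbours there, and above 98.4% and 98.2% of them in the clone's comparisons with CDC and with pEpiC.

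**Figure D3:**
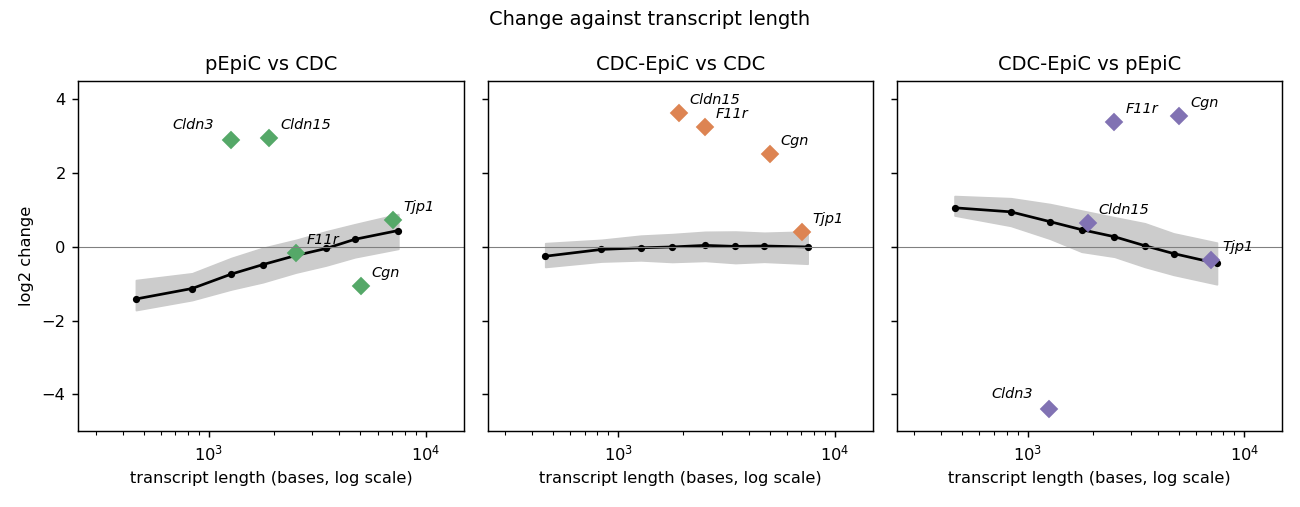
Log2 change (vertical axis) against transcript length in bases (horizontal axis, logarithmic) for each comparison. The black line joins the medians of genes in bins of length, the grey band spans their quartiles, and diamonds are the tested members. Tjp1 lies within the band or at its edge in every panel, while F11r and Cgn lie far above it in both comparisons of the clone.

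Per length, the members also changed their order. In CDC, F11r stood at 23.3 ± 2.69 TPM and Tjp1 at 18.3 ± 3.66 TPM (SD, n = 3), and their libraries overlapped, from 21.6 to 26.4 and from 14.9 to 22.2 TPM. Cgn followed at 2.39 TPM and Cldn15 at 1.44 TPM, without overlap. In CDC-EpiC, F11r stood at 233 ± 8.10 TPM and alone made up 79.7% of the 293 TPM of the 9 members. Behind it came Tjp1 at 25.6 TPM, Cldn15 at 18.8 TPM and Cgn at 14.6 TPM, the latter pair nearly touching, with a lowest library of 15.04 TPM for Cldn15 and a highest of 15.03 TPM for Cgn. In pEpiC the order was Tjp1 at 43.5 ± 1.38 TPM, F11r at 29.2 ± 2.08 TPM, Cldn15 at 15.8 ± 1.59 TPM, Cldn3 at 3.24 ± 0.186 TPM and Cgn at 1.66 ± 0.118 TPM, with no overlap between neighbours.

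The ratio of F11r to Tjp1 within a library was 1.19 to 1.45 in CDC, 8.81 to 9.46 in CDC-EpiC and 0.638 to 0.690 in pEpiC. The members' TPM summed to 41.1 to 53.4 in CDC libraries, 285.6 to 299.9 in CDC-EpiC libraries and 91 to 96.7 in pEpiC libraries. The 3 kinds did not overlap in this ratio or in the sum. Both also carry shifts shared by all genes. On log2(TPM + 1) the median change of all genes was 0.41 from CDC to pEpiC and -0.33 from pEpiC to the clone. Long genes, such as Tjp1, stood higher in pEpiC as a rule. The part of these shifts in the ratio and the sum was not tested. Of the strand protein genes among the 9 members, Cldn15 led in each kind. It made up 3.11% of the members' TPM in CDC, 6.42% in CDC-EpiC and 16.9% in pEpiC, where Cldn3 added 3.47%.

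Ocln, Cldn1, Cldn4 and Cldn7 were at the edge of detection. The floor of 3 counts corresponds to 0.132 to 0.136 CPM. Ocln (Entrez 18260), the gene of occludin, had 3, 3.04 and 2 counts in CDC, 12.01, 5.03 and 6 in CDC-EpiC, and 0, 0 and 1.99 in pEpiC. Against the floor of 3 counts per library, its summed counts in the clone were at least 2.59-fold higher than in pEpiC. Without the filter on low counts edgeR gave an adjusted p of 0.00766 for this difference and DESeq2 gave 0.0219, whereas the difference from CDC passed in neither (0.0556 and 0.182).

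The 3 remaining claudins were scarcer still. Cldn1 (Entrez 12737), a barrier claudin of skin, had 4, 5 and 2 counts in CDC, 1, 0 and 0 in CDC-EpiC, and 3, 1 and 3 in pEpiC. Cldn7 (Entrez 53624) had 1, 5 and 4 counts, 1, 1 and 2 counts, and 0, 2 and 0 counts, in the same order. Cldn4 (Entrez 12740) had a single count in the whole series, in pEpiC library 3. The lower Cldn1 in the clone had an adjusted p of 0.0302 in edgeR without a filter and 0.0871 in DESeq2, so it was called by one tool only, and no difference in Cldn4 or Cldn7 was detectable at this depth.

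Beyond the members, 87 other genes of the junction and its control were listed, of which 75 were in the table. Between CDC-EpiC and CDC, 15 of 50 tested rose and 21 fell, with a median change of -0.04, where 34.2% of all genes rose and 34.6% fell. Between pEpiC and CDC, 24 of 52 rose and 18 fell, with a median of 0.13, where 39.8% and 38.5% of all genes did. Between CDC-EpiC and pEpiC 22 of 53 were higher and 25 lower, with a median of -0.10, where 40.3% and 41.5% of all genes were. Genes called in both directions were thus found in each comparison.

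Among the other membrane proteins the pattern was mixed. Of 21 further claudins and relatives, 2 were tested between CDC-EpiC and CDC and neither was called. Cldn12, an unusual claudin without a scaffold-binding end, stood at 19.8 TPM in CDC, 22.6 TPM in CDC-EpiC and 22.6 TPM in pEpiC, which is above Cldn15 in each kind. Between kinds, the count test placed it lower in pEpiC than in CDC, with a log2 change of -0.31 (edgeR adjusted p = 0.00101). It was higher in the clone than in pEpiC, by 0.37 (edgeR adjusted p = 0.000188). All 3 tested genes of the occludin and tricellular group rose in the clone, as did 34.2% of all genes. Of the receptors related to F11r, Cxadr, the coxsackievirus and adenovirus receptor, rose from 205 ± 4.90 CPM in CDC to 569 ± 15.8 CPM in CDC-EpiC, a log2 change of 1.47 (SE 0.08, edgeR adjusted p = 1.94e-10), and was 89.3 ± 3.06 CPM in pEpiC. Clmp, an adhesion molecule of the same family, went the other way, from 12.014 CPM in CDC to 4.28 CPM in the clone and 81.9 CPM in pEpiC (log2 changes of -1.49 and 2.72 from CDC). The family of F11r therefore held genes that rose in the clone and, with Jam2 and Jam3 at log2 changes of -0.93 and -0.87, genes that fell.

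In the cytoplasmic plaque, 5 of 19 tested genes rose in the clone and 9 fell, beside 34.2% and 34.6% of all genes. Patj, a multi-PDZ scaffold of the Crumbs complex, was 24.98 CPM in the clone and 7.21 CPM in pEpiC, a log2 difference of 1.79. Magi2, another scaffold, was lower in the clone than in pEpiC by 2.00. Cgnl1, the relative of Cgn, did not follow it, and fell by 0.48 from CDC to the clone (SE 0.11, adjusted p = 0.00136).

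The polarity genes held the greatest rises of the list in the clone. The steepest was that of Crb3, at a log2 change of 3.76 (SE 0.41) from CDC. It had at most 3 counts in a CDC library and 33 in a clone library, and passed the filter only through the clone. Pard6b, a subunit of the Par complex that F11r protein helps to place at contacts, rose from 13.0 ± 0.802 to 129 ± 14.4 CPM, a log2 change of 3.30 (SE 0.10, edgeR adjusted p = 3.77e-13). Crb2, a Crumbs membrane protein, rose from 6.81 ± 0.672 to 57.0 ± 2.17 CPM, a log2 change of 3.06 (SE 0.09, edgeR adjusted p = 3.91e-13). Both were also higher in the clone than in pEpiC, by 3.06 and 2.35. Pard6g, the paralogue of Pard6b, fell by 1.21 from CDC to the clone. Pard3b was higher in pEpiC than in CDC by 1.88 and lower in the clone than in pEpiC by 2.96, and Llgl2 was lower in pEpiC than in CDC by 1.44.

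Of the regulators, 6 of 8 tested fell in the clone relative to CDC and 1 rose, where 34.6% of all genes fell and 34.2% rose. The 6 included Esrp2, a splicing factor of epithelial transcripts, at -0.41, and Klf4, an epithelial transcription factor, at -0.52, besides 4 repressors. Snai1, a repressor of E-cadherin and claudin genes, fell from 84.7 ± 6.44 to 20.7 ± 1.26 CPM, a log2 change of -2.04 (SE 0.08, edgeR adjusted p = 1.38e-11). Snai2, its relative, fell from 15.3 ± 0.984 to 5.60 ± 0.669 CPM, a log2 change of -1.45 (SE 0.12, edgeR adjusted p = 3.07e-08). In pEpiC the pair parted, with Snai1 lower than in CDC by a log2 change of -1.39 and Snai2 higher by 1.52. With length and GC content allowed for, these changes were -0.87 and 1.61. Zeb2, a further repressor of epithelial genes, was also higher in pEpiC, by 1.45, or 0.81 once length and GC content were allowed for. Esrp2 was lower in pEpiC than in CDC by a log2 change of -2.13. The Grainyhead-like gene Grhl1 rose in the clone by 2.06 (SE 0.25), but from 0.562 to 2.38 CPM only, and Grhl2 had at most 1 count in any library.

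**Figure D4:**
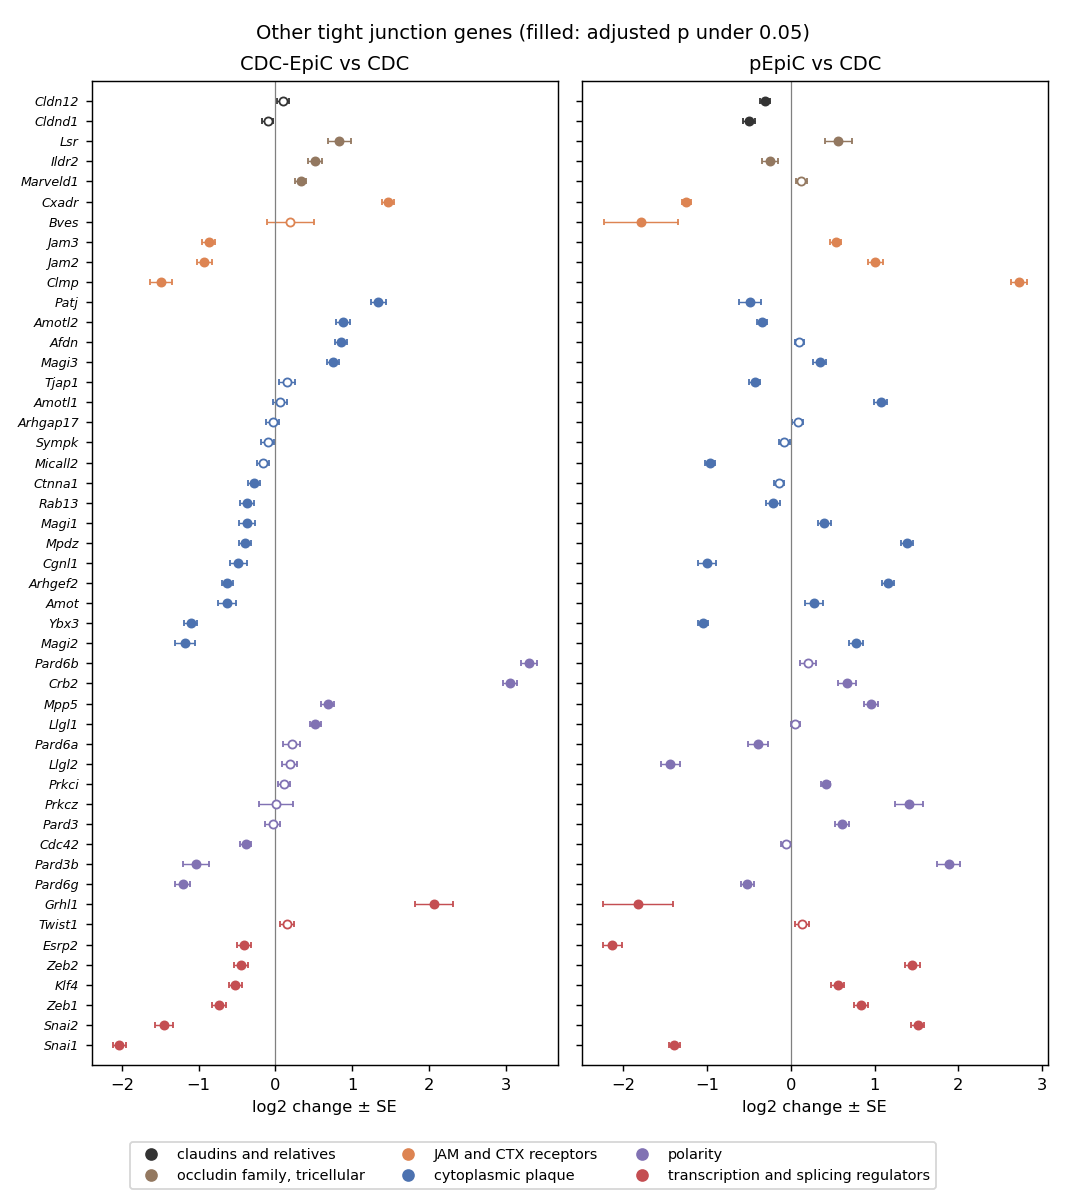
Log2 change ± SE (horizontal axes) of 48 other tight junction genes tested against CDC in both CDC-EpiC (left) and pEpiC (right), ordered by role and by the left-hand value, with filled points for an adjusted p under 0.05. Pard6b and Crb2 lead at the right of the CDC-EpiC panel and Snai1 lies at its lowest value, while in pEpiC Clmp leads and Esrp2 is lowest.

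The genes whose levels across the 9 libraries were most like those of a member were found by Pearson's r of log2(CPM + 1), given as a description because libraries of a kind share their state. Nearest to F11r were Itpk1, Shroom3 and Frmd4b (each r = 0.999), with Shroom3, an organiser of apical actin, at 40.2 CPM in CDC, 223 CPM in CDC-EpiC and 39.7 CPM in pEpiC. Nearest to Cgn were Gpm6a (r = 0.999), Atp1b1 and Slc9a3r1 (each r = 0.997). Slc9a3r1, a scaffold below the apical membrane, stood at 171, 1426 and 82.9 CPM in the 3 kinds. Nearest to Cldn15 were Adamts7, Adcyap1r1 (each r = 0.994) and Phf12 (r = 0.993), and nearest to Tjp1 were Zfp110 (r = 0.995), Iars2 (r = 0.994) and Chd8 (r = 0.993). Cgn and Cldn15 themselves were below the 20 CPM asked of the genes compared.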

How the data were processed

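The authors deposited 1 table of 18245 genes with expected counts, FPKM and TPM for each of 9 libraries. Poly(A) RNA was reverse transcribed from random hexamers, and paired reads of 100 bases came from a BGISEQ-500. The submitters' processing notes name HISAT2 2.0.4, Bowtie2 2.2.5, RSEM 1.2.12, DESeq2 1.4.5 and build mm10. Whether strand was used is not given in the sources used here. The deposited expected counts are estimated reads per gene (30.3% of values were not whole) and were rounded for testing. The FPKM deposited by the authors are scaled to transcript length and library total. The TPM deposited by the authors sum to an equal total per library. A further 9 columns, with means over libraries, were not used. Library columns were taken as replicates, since their counts differed beyond sampling of reads (chi-square per degree of freedom 4.89 to 23.0).

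Each pair of kinds was fitted on its 6 libraries in edgeR 4.0.16 under R 4.3.3 (filterByExpr with a minimum count of 10 and a minimum total of 15, TMM, glmQLFit, glmQLFTest), with Benjamini-Hochberg adjustment over all genes tested and a threshold of 0.05. The fit was tested on simulated data. Alternatives were RLE normalization, library size alone, DESeq2 1.42.0, other filters, all libraries in 1 fit, limma 3.58.1 on log2(TPM + 1), log2(FPKM + 1) and log2(FPKM + 0.1), offsets for transcript length and GC content, a test against a 1.5-fold change, the library number as a block, and leaving out each library. Leaving out CDC libraries 1 and 2 together was chosen after seeing the data. Lengths and GC content are of the longest GENCODE transcript on GRCm38 (17633 genes, 96.6%), and gene positions are from that annotation. Python 3.11.15, pandas 2.3.3, NumPy 2.4.6, SciPy 1.17.1 and matplotlib 3.10.9 were used for the rest. The members and lists were chosen with earlier results of these data known. Named from the list of other genes, in each comparison, were the 4 largest rises and 4 largest falls past the threshold, without overlap and at 10 CPM or more in the group where they were higher, and for each member tested throughout the 3 genes of at least 20 CPM with the highest correlation. A gene that this rule names is not reported here. Cldn12, Jam2, Jam3, Cgnl1, Crb3, Klf4, Grhl1, Grhl2 and the marker genes were named after their values were seen. Intervals and floors cover counting error only, because PCR reads are not independent molecules.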

Additional observations from a re-analysis of the deposited data

How the results depend on the processing

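Most member results kept their direction and their side of the threshold under the alternatives tried. The direction of Tjp1 between CDC-EpiC and pEpiC turned, to 0.14 with a length offset and 0.16 with length and GC content. On log2(TPM + 1) the median of all genes moved to 0.41 between pEpiC and CDC, with 74.5% of calls higher instead of 50.8%, and to -0.33 between CDC-EpiC and pEpiC, with 32.9% higher instead of 49.3%. F11r between pEpiC and CDC was 0.32 on that scale, a turn of sign that stays below the shift of all genes. Tested against a 1.5-fold change, 3 members were called between CDC-EpiC and pEpiC (F11r, Cgn and Cldn3), and 24 and 19 of the other junction genes were called in pEpiC and in CDC-EpiC against CDC, instead of 42 and 36. Over all genes that test called 5549, 3664 and 6578 in the 3 comparisons, or 41.0%, 28.2% and 48.6% of those tested. Tjp1 was not called by it in any comparison (adjusted p = 0.0620, 1 and 1).

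Leaving out 1 library at a time gave 4 to 5 called members between pEpiC and CDC, 4 between CDC-EpiC and CDC, and 5 between CDC-EpiC and pEpiC. Of all genes tested, these fits called 73.4 to 78.5%, 62.6 to 68.6% and 78.4 to 80.4%. The fifth call between pEpiC and CDC was F11r, at -0.21 (adjusted p = 0.0492) without CDC library 2. It was also called against CDC library 3 alone, at -0.30 (adjusted p = 0.0215), a fit in which the lone library is assumed to vary like those of pEpiC. Slopes of change on length over single pairs of libraries ran from 0.326 to 0.481 for pEpiC against CDC, from -0.0547 to 0.0798 for CDC-EpiC against CDC and from -0.423 to -0.359 for CDC-EpiC against pEpiC. Deviations of libraries with the same number correlated at -0.101 to 0.162, and in no comparison did every pair exceed 0.1. Such values from 3 libraries per kind cannot exclude a pairing by library number, and the main fit used none. With the number as a replicate block, F11r between pEpiC and CDC was -0.17 (adjusted p = 0.0457), no other call of a member changed, and 10604, 8831 and 11096 genes were called. For Cldn1, Cldn4, Cldn7 and Ocln depth was the limit, at a few reads per library.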
